A study of Mus musculus with 4 samples.

Results

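The 40 genes described here act when a cell divides its chromosomes and then itself, and they were read in T cells taken from mouse bone marrow 14 days after an allogeneic bone marrow transplant. They were chosen as a list of named genes with at least 20 unique RNA molecules (UMIs) over both RNA libraries. All 40 listed genes met that minimum, out of 10122 genes that met it and 32285 in the RNA table. The list was chosen with earlier results of these data known, so counts over it are a description. The recipients were C57BL/6 mice, given 5000000 bone marrow cells together with 500000 CD4 and 500000 CD8 T cells, all of the strain C3H.SW, which matches C57BL/6 in major histocompatibility genes and differs in minor antigens. One group had the transplant only (alloBMT). The other also had 50 mg/kg cyclophosphamide, an alkylating agent toxic to cells in cycle, given on day 3 and on day 4 (PT-Cy). Sorted CD4 and CD8 T cells of 4 mice per group were pooled and nuclei were read on the 10X Multiome platform, which takes RNA and open chromatin (ATAC) from the same nucleus. Every mouse of both groups carried the same graft, but how recipients were conditioned, and whether sorted T cells came from donor or host, the sources used here do not give.

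Each group is 1 library per assay, so no difference has a replicate check, no test was made, and group and library cannot be told apart. RNA was read here in the CD4 set only, in 926 alloBMT and 284 PT-Cy cells, and ATAC in those cells and in a CD8 set of 1865 and 512 cells. Median depth of the CD4 set was 2750 UMIs per cell in alloBMT and 3889 in PT-Cy, and 6874 and 4091 ATAC counts. No cell barcode of the CD4 set was shared by the libraries. After every cell was thinned to 1981 UMIs, Cd4 was seen in 78.6% of alloBMT and 65.3% of PT-Cy cells, Cd8b1 in 14.8% and 20.8%, and Cd8a in 0 of 830 and 0 of 259 cells, which allows shares of up to 0.361% and 1.16% of cells with a UMI. Most cells of both libraries thus had a Cd4 UMI, while Cd8b1 was not absent. The authors may have set the label with these same genes, so the shares are no check of it. The median mitochondrial share of UMIs was 3.69% and 4.75%.

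A cell enters mitosis when cyclins A and B bind the kinase Cdk1. Condensin then folds the chromosomes, motors and microtubule binding proteins build the spindle, kinetochores attach chromosomes to it, a checkpoint holds the cell until all are attached, and cytokinesis parts the daughter cells. Transcripts of these genes rise late in the cycle, in G2 and M, and are kept low in resting T cells. The MuvB complex, bound by Mybl2 and Foxm1 in dividing cells or by repressors in resting cells, acts on many of them through a short promoter element, the cell cycle genes homology region (CHR), often with CCAAT boxes bound by the factor NF-Y.

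RefSeq promoter entries (GRCm38.p6, 250 bases before to 50 after a start) matched 34 of the 40 genes, with 37 entries since some genes have more than 1 start. Aurkb, Ccna2, Depdc1b, Kif20a, Smc4 and Tpx2 were without an entry. CHR letters were searched on either strand as TTTGAA with its variants TTTAAA and also TTCGAA and lastly CTTGAA. They were in 32 of the 37 entries (86.5%), against 37.3% of all 32851 entries. Between 100 bases before and 50 after the start, a window added after the values were seen, they were in 31 entries (83.8%), against 18.2% of all. CCAAT on either strand was in 27 entries (73.0%) against 37.4%, and at least 2 copies were in 15 (40.5%) against 11.7%. E2F letters (TTTCCCGC, TTTGGCGC, TTTCGCGC or TTTGCCGC, either strand) were in 5 entries (13.5%) against 2.26%. CHR letters within the narrower window together with a CCAAT were in 25 entries (67.6%) against 7.10%. Matches of different motifs can share bases, letters that read the same on both strands were counted once, and a match is a description of the letters alone.

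The following 200 bases end just before the annotated start and run 5′ to 3′ on the gene's strand, with CHR and CCAAT letters of either strand in capitals. Cdk1 and Ccnb1 are shown as the kinase and cyclin that begin mitosis, Mki67 and Top2a as the genes with most UMIs among those with an entry. Kif11 is shown as the gene with the lowest ratio within cluster 2 below, and Birc5 as a promoter with no such letters in this stretch.
Cdk1, minus strand, chr10:69352913-69353112: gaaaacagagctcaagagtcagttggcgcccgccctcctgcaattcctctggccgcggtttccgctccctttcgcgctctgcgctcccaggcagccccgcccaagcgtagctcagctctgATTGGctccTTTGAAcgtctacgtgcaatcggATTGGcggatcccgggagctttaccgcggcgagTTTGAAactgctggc
Ccnb1, minus strand, chr13:100786487-100786686: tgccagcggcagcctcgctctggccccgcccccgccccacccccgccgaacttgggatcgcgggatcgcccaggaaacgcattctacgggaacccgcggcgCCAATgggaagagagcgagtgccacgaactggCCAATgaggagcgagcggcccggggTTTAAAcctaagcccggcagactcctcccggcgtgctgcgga
Mki67, minus strand, chr7:135716380-135716579: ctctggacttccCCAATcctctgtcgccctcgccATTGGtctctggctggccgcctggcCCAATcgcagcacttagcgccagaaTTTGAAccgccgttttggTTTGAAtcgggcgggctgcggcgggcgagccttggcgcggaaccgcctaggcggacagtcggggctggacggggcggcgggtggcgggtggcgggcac
Top2a, minus strand, chr11:99024190-99024389: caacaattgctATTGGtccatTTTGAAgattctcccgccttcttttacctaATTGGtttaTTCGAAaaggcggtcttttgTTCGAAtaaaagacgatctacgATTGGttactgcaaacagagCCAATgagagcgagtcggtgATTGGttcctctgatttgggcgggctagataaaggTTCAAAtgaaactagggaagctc
Kif11, plus strand, chr19:37376182-37376381: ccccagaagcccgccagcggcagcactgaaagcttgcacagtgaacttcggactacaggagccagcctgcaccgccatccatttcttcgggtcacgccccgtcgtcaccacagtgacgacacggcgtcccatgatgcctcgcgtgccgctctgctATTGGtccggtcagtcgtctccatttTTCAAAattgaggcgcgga
Birc5, plus strand, chr11:117849037-117849236: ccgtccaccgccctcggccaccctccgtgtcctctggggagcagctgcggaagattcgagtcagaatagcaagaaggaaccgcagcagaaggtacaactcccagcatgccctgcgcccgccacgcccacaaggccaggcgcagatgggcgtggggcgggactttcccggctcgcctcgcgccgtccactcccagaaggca
Top2a held the most such letters of the 6 stretches, and in each of the 5 stretches with such letters a CCAAT of either strand lay before the CHR letters nearest to the start.

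RNA of the mitosis genes was higher in PT-Cy than in alloBMT CD4 cells for 39 of 40 genes at the size rule of 2-fold, which 9.01% of the 10122 genes passed in that direction. None was 2-fold lower, where 4.68% of all genes were. Levels are UMIs per 1000000 UMIs of the library's CD4 cells (CPM), and a ratio is the log2 of PT-Cy over alloBMT CPM with its exact conditional binomial 95% interval, which covers counting error only. The median ratio of the 40 genes was 2.05, against 0.06 over all 10122 genes, and single genes ranged from 0.69 to 3.45. All 40 intervals lay above 0, as did 20.8% of intervals over all genes, while 13.7% lay below. Summed over the list, 6091 UMIs (2012 CPM) in alloBMT stood against 8485 (6712 CPM) in PT-Cy, a ratio of 1.74 (1.69 to 1.79). With the TMM factors of edgeR the median over all genes moved from 0.06 to -0.07 and that of the list from 2.05 to 1.92, and the count stayed at 39.

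**Figure D1:**
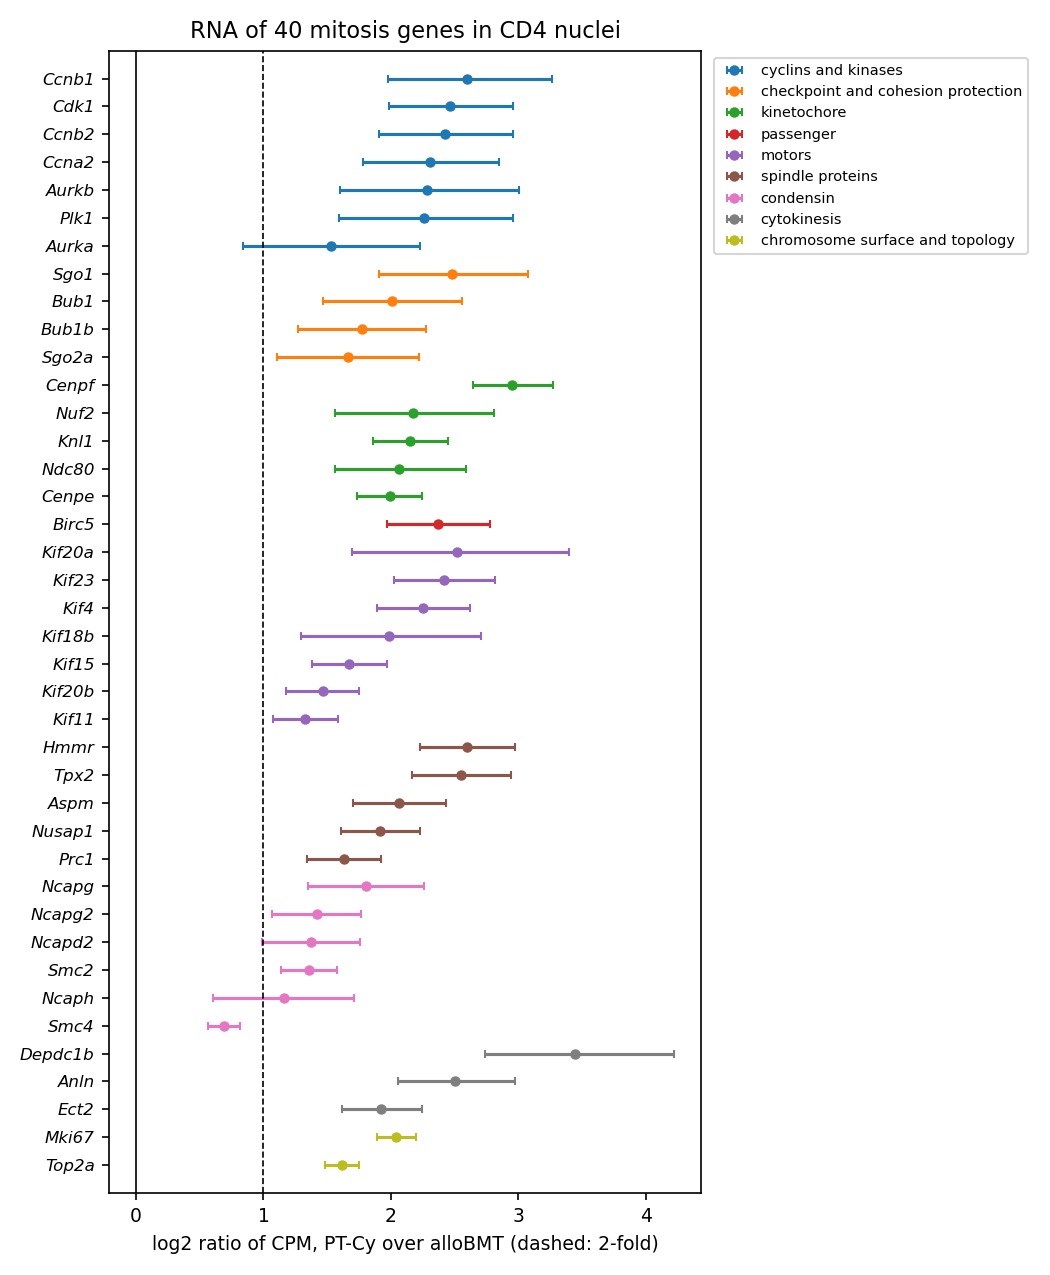
Log2 ratio of CPM, PT-Cy over alloBMT, for the 40 mitosis genes in CD4 nuclei, coloured by role, with 95% counting intervals (1 library per group). All points lie right of 0, Smc4 alone lies left of the dashed 2-fold line, and Depdc1b lies farthest right at 3.45.

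The 7 cyclins and kinases had a median ratio of 2.31 and a summed level of 87.5 CPM in alloBMT and 435 CPM in PT-Cy. Ccnb1, a cyclin B whose arrival at Cdk1 starts mitosis, had 30 UMIs (9.91 CPM) in alloBMT and 76 (60.1 CPM) in PT-Cy, a ratio of 2.60 (1.97 to 3.26). Ccnb2, the other cyclin B of this list, had 46 UMIs (15.2 CPM) and 103 (81.5 CPM), a ratio of 2.42 (1.91 to 2.96). Ccna2, cyclin A, had 46 (15.2 CPM) and 95 (75.2 CPM), a ratio of 2.31 (1.78 to 2.85). Cdk1, the kinase they bind, lay between them, with 53 (17.5 CPM) and 122 UMIs (96.5 CPM) and a ratio of 2.46 (1.99 to 2.96). Plk1, which helps to switch Cdk1 on and matures centrosomes, had 29 UMIs (9.58 CPM) and 58 (45.9 CPM), a ratio of 2.26 (1.59 to 2.96). Aurkb, the kinase that corrects faulty attachments, had 27 (8.92 CPM) and 55 (43.5 CPM), a ratio of 2.29 (1.60 to 3.01). Aurka, a centrosome kinase, had the lowest value of the role with 34 (11.2 CPM) and 41 UMIs (32.4 CPM) and a ratio of 1.53 (0.84 to 2.23). The intervals of all 7 overlapped each other, and the differences between these genes were not tested. Birc5 (survivin), the partner of Aurkb in the chromosomal passenger complex, had 77 UMIs (25.4 CPM) and 166 (131 CPM), a ratio of 2.37 (1.97 to 2.78).

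The 5 kinetochore genes had a median ratio of 2.15. Cenpf, a large protein that joins the outer kinetochore in G2, had 114 UMIs (37.6 CPM) in alloBMT and 369 (292 CPM) in PT-Cy, and its ratio of 2.95 (2.65 to 3.27) was the second highest of the list. Its interval lay above those of Cenpe and Knl1. Cenpe, a kinesin that carries chromosomes to the spindle's middle, had 206 (68.0 CPM) and 342 UMIs (271 CPM), a ratio of 1.99 (1.74 to 2.25). Knl1, the scaffold to which the checkpoint kinase Bub1 binds, had 149 (49.2 CPM) and 276 UMIs (218 CPM), a ratio of 2.15 (1.86 to 2.45). Ndc80 and Nuf2, subunits of the complex that grips microtubules, had ratios of 2.07 and 2.18. Of the 4 genes of the checkpoint and of cohesion protection, Bub1 had 47 UMIs (15.5 CPM) and 79 (62.5 CPM), a ratio of 2.01 (1.47 to 2.56). The other 3 were Bub1b at 1.77, and the shugoshins Sgo1 and Sgo2a, which guard centromeric cohesion, at 2.48 and 1.66.

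The 7 motors had a median ratio of 1.99 and spread from 1.33 to 2.52. Kif11, the kinesin that pushes spindle poles apart, had 253 UMIs (83.6 CPM) in alloBMT and 265 (209.6 CPM) in PT-Cy, and its ratio of 1.33 (1.07 to 1.58) was the lowest of the motors. Kif15, which can stand in for Kif11, had a ratio of 1.68 and Kif20b one of 1.47. The motors of the spindle's middle zone and of chromosome arms were at 2.42 (Kif23), 2.52 (Kif20a) and 2.25 (Kif4), and Kif18b, which shortens astral microtubules, at 1.99. Kif11's interval lay below those of Kif23, Kif20a and Kif4.

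Among the 5 spindle proteins the median was 2.07. Hmmr, a microtubule binding protein of the spindle poles, had 86 UMIs (28.4 CPM) and 217 (172 CPM), a ratio of 2.60 (2.23 to 2.97). Tpx2, which activates Aurka, had 81 (26.8 CPM) and 198 UMIs (157 CPM), a ratio of 2.55 (2.17 to 2.94). Aspm, Nusap1 and Prc1 had ratios of 2.07, 1.92 and 1.63, and the interval of Prc1, which bundles microtubules of the midzone, lay below that of Hmmr.

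The 3 cytokinesis genes had ratios on both sides of the list's median. Depdc1b had 20 UMIs (6.61 CPM) in alloBMT and 91 (72.0 CPM) in PT-Cy, and its ratio of 3.45 (2.74 to 4.22) was the highest of all 40. Anln (anillin), a scaffold of the contractile ring, had 59 (19.5 CPM) and 140 UMIs (111 CPM), a ratio of 2.51 (2.06 to 2.97). Ect2, an exchange factor that acts at the cleavage furrow, had a ratio of 1.93.

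The 6 condensin genes had the lowest median ratio of any role, 1.37. Smc4, an ATPase subunit that both condensins share, had 1289 UMIs (426 CPM) in alloBMT and 868 (687 CPM) in PT-Cy, and its ratio of 0.69 (0.56 to 0.82) was the only one under 2-fold. Its partner Smc2 had 339 (112 CPM) and 363 UMIs (287 CPM), a ratio of 1.36 (1.14 to 1.58), above the interval of Smc4. Ncapg2, a subunit of condensin II, had 131 (43.3 CPM) and 146 (115 CPM), a ratio of 1.42 (1.07 to 1.77). Of the condensin I subunits, Ncaph had 59 (19.5 CPM) and 55 UMIs (43.5 CPM), a ratio of 1.16 (0.60 to 1.71), Ncapd2 had 112 (37.0 CPM) and 121 (95.7 CPM), a ratio of 1.37 (0.99 to 1.76), and Ncapg had a ratio of 1.80. Smc4 made up 21.2% of all mitosis gene UMIs in alloBMT and 10.2% in PT-Cy, so it weighs on any summed level.

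Mki67 (Ki-67), a protein that coats mitotic chromosomes and is widely used as a marker of cycling cells, had 568 UMIs (188 CPM) in alloBMT and 978 (774 CPM) in PT-Cy. Its ratio was 2.04 (1.89 to 2.20). Top2a, the topoisomerase that untangles chromosomes, had 796 (263 CPM) and 1019 UMIs (806 CPM), a ratio of 1.62 (1.48 to 1.75), below the interval of Mki67.

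Related genes from other lists were read the same way. Over all 10122 genes, 9.01% were at least 2-fold higher in PT-Cy and 4.68% at least 2-fold lower. Of 59 further G2 and M genes, 57 met the minimum and 50 were at least 2-fold higher in PT-Cy, with a median ratio of 1.74. Their largest ratios were those of Nek2, a centrosome kinase (3.41), Melk (3.13), Cdc25c, the phosphatase that activates Cdk1 (3.07), and Ube2c, a ubiquitin carrier of the anaphase complex (2.85). Of 40 genes of DNA replication and S phase, 14 were at least 2-fold higher and none lower, with a median of 0.73. Within that list the repressor E2f8 had 3.10, E2f2 2.40, the ribonucleotide reductase subunit Rrm2 2.28 and Mcm10 1.68. The intervals of Dtl at -0.54 and Mcm6 at -0.32 lay below 0. Their summed level was 1873 CPM in alloBMT and 2649 CPM in PT-Cy, a ratio of 0.50 (0.44 to 0.56), against 1.74 for the mitosis genes.

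Of 11 condensin and cohesin genes outside the list, none passed 2-fold, and the median ratio was 0.27. Intervals of 7 lay above 0 and of 1 below, and the largest ratios were Ncapd3 at 0.69, Ncaph2 at 0.68, both of condensin II, and the cohesin regulator Pds5a at 0.63. Of 19 regulators of cell cycle transcription, 3 were at least 2-fold higher and 0 lower (9.01% and 4.68% of all genes), with a median of 0.44. These were Foxm1, with 26 UMIs (8.59 CPM) in alloBMT and 39 (30.9 CPM) in PT-Cy and a ratio of 1.85 (1.09 to 2.62), Mybl2 at 1.45 and Fzr1, an activator of the anaphase complex, at 1.43. Nfya, a subunit of the CCAAT binding factor, was next at 0.96. Intervals of 9 regulators lay above 0 and of 2 below (20.8% and 13.7% of all genes), and 8 included 0. The lowest ratio was -0.45, and the summed ratio of the regulators was 0.10 (0.03 to 0.18). A list of 16 genes of G1 control held kinase inhibitors and antiproliferative factors, and with them Cdk6 and the D cyclins, which drive G1. Of its 14 genes that met the minimum, 4 were at least 2-fold higher and 1 lower (9.01% and 4.68% of all genes). Intervals of 6 lay above 0 and of 3 below (20.8% and 13.7% of all genes), and 5 included 0. The list summed to 3626 CPM in alloBMT and 2728 CPM in PT-Cy, a ratio of -0.41 (-0.47 to -0.36). The kinase inhibitors Cdkn2c and Cdkn2d had ratios of 1.71 and 1.57, Cdkn2a had 1.06, and Btg1, an antiproliferative factor of resting lymphocytes, went from 1269.5 to 616 CPM, a ratio of -1.04 (-1.16 to -0.93).

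The authors' deposited clusters split the CD4 cells into 5, and the mitosis genes were highest in cluster 2 of each library. The clusters were made from the profiles of these cells, so the level by cluster is a description and no test. In alloBMT, cluster 2 held 42 of 926 cells and its summed level was 9188 CPM, while clusters 0, 1, 3 and 4 lay between 1458 and 1574 CPM. In PT-Cy, cluster 2 held 238 of 284 cells and its summed level was 7177 CPM. The 31 PT-Cy cells of cluster 4 had 4230.1 CPM, the 11 of cluster 3 had 5391 CPM and the 4 of cluster 0 had 3454 CPM (2660.2 to 4411), and no PT-Cy cell was in cluster 1. Every PT-Cy cluster with cells lay above every alloBMT cluster other than cluster 2. Cluster 2 carried 28.2% of the mitosis gene UMIs of alloBMT and 88.5% of those of PT-Cy.

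**Figure D2:**
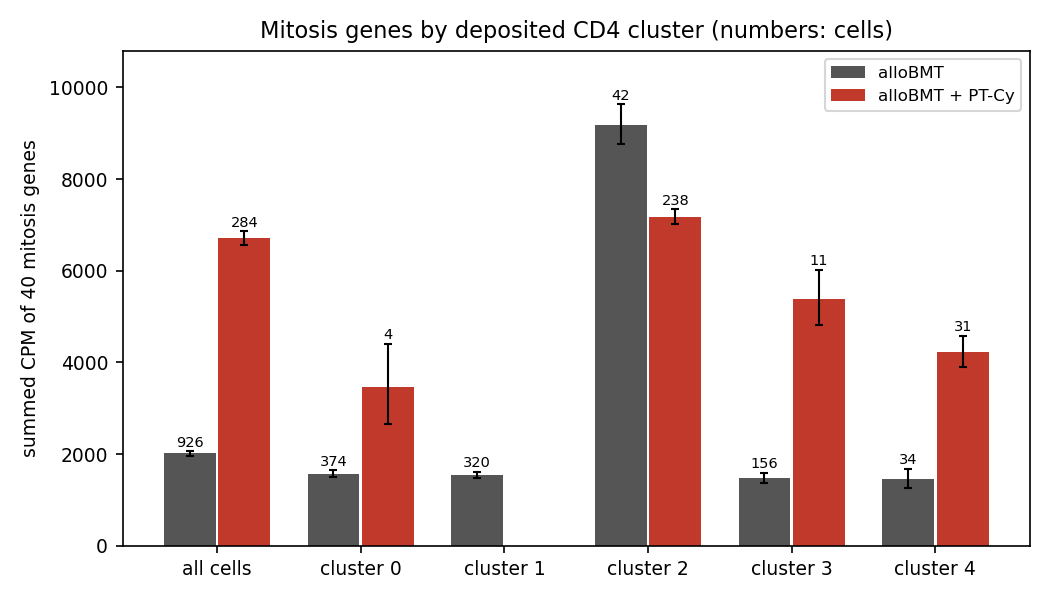
Summed CPM of the 40 mitosis genes in all CD4 cells and in each deposited cluster (bars, with 95% Poisson intervals), with the number of cells above each bar. In cluster 2 the alloBMT bar, 9188 CPM, is the higher, and in clusters 0, 3 and 4 the PT-Cy bar is the higher, with no PT-Cy cells in cluster 1.

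The layout over clusters differed between genes. Mki67 lay between 136 and 149 CPM in alloBMT clusters 0, 1, 3 and 4 and at 866 CPM in cluster 2, and in PT-Cy it was at 821 CPM in cluster 2 and 555 CPM in cluster 4. Kif11 lay between 27.2 and 66.0 CPM in alloBMT clusters other than 2, at 513 CPM in alloBMT cluster 2, and at 228 CPM in PT-Cy cluster 2 and 57.0 CPM in PT-Cy cluster 4. Smc4, common in every cluster, had 358 to 535 CPM in alloBMT clusters other than 2, 839 CPM in alloBMT cluster 2 and 700.3 CPM in PT-Cy cluster 2.

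Within cluster 2 the direction turned: the summed level was lower in PT-Cy, with a ratio of -0.36 (-0.43 to -0.28), and 1 of 40 genes was 2-fold higher, as were 11.4% of all genes there, and 4 (Kif11, Kif18b, Kif15 and Ncaph) were 2-fold lower, as were 4.33% of all genes. The median ratio there was -0.33, against 0.06 over the 7605 genes with at least 20 UMIs in the cluster. As a mean over cells of each cell's CPM, the list was at 7609 in alloBMT and 6582 in PT-Cy. These lie closer together than the pooled levels of 9188 and 7177 CPM, and the interval of the sum leaves out the spread between cells. The intervals of 14 genes lay below 0 and those of 0 above it, where 6.98% and 7.28% of all genes did. Motors were lowest as a role, with a summed ratio of -0.80 (-0.98 to -0.62). Kif11 had 96 UMIs (513 CPM) in alloBMT and 239 (228 CPM) in PT-Cy, a ratio of -1.17 (-1.52 to -0.81), and Kif15 and Kif18b were at -1.12 and -1.13. Of the condensin genes, Ncaph was at -1.04 (-1.84 to -0.17), Ncapd2 at -0.89 and Ncapg2 at -0.80. Cyclins and kinases had a summed ratio of 0.29 (-0.08 to 0.67), which includes 0. Ccnb1 was the gene past 2-fold, with 5 UMIs in alloBMT and 68 in PT-Cy and a ratio of 1.28 (-0.01 to 2.95), followed by Kif20a at 0.84 (-0.63 to 2.78), Ccnb2 at 0.76 (-0.24 to 1.93) and Birc5 at 0.51 (-0.19 to 1.28). The 42 alloBMT cells leave these intervals wide. S phase genes were lower as well within cluster 2, with a summed ratio of -0.53 (-0.65 to -0.41).

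Outside cluster 2 the mitosis genes were higher in PT-Cy, at 1539 CPM in 884 alloBMT cells and 4476 CPM in 46 PT-Cy cells, and 30 of the 38 genes that met the minimum there were at least 2-fold higher (9.95% of all genes, with 9.56% lower). Cenpf, for instance, had 70 UMIs (24.6 CPM) and 51 (235 CPM), a ratio of 3.25 (2.70 to 3.79), while Ncapg2 had 88 (31.0 CPM) and 8 (36.8 CPM), a ratio of 0.25 (-1.01 to 1.29). In cluster 4 alone, the sum over all 40 genes was 188 UMIs (1458 CPM) in alloBMT and 594 (4230.1 CPM) in PT-Cy, a ratio of 1.54 (1.30 to 1.78). Of the 9 genes that met the minimum there, all but Smc4 (69 UMIs in alloBMT and 96 in PT-Cy) did so only with their PT-Cy UMIs. Nothing is thus read from the 7 that were 2-fold higher (7.19% of all genes, with 7.45% lower) or had intervals above 0 (8.67% of all genes, with 8.5% below). Among these, Mki67 had 19 UMIs (147 CPM) in alloBMT and 78 (555 CPM) in PT-Cy, and Cenpf had 5 and 37 UMIs. Their ratios are not read either. Smc4 and Smc2 had ratios of 0.35 and 0.88 there, with intervals that included 0.

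**Figure D3:**
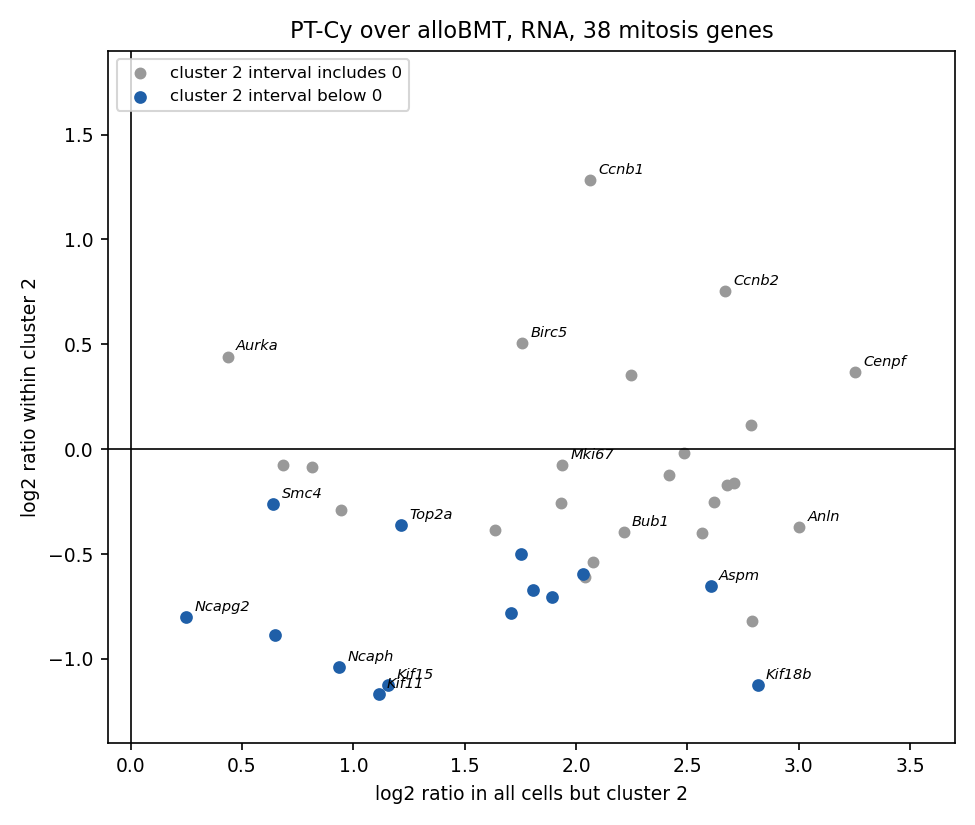
Log2 ratio of PT-Cy over alloBMT in all CD4 cells but cluster 2 (horizontal) and within cluster 2 (vertical) for the 38 mitosis genes with at least 20 UMIs in both, each point 1 gene. All points lie right of 0 and most lie below 0, with the motor Kif11 at -1.17 at the bottom and the cyclin Ccnb1 at 1.28 at the top.

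Counting the mitosis genes seen in each cell shows how the UMIs were spread over cells. At 1981 UMIs per cell, which 830 alloBMT and 259 PT-Cy cells reached (96 and 25 were left out), the median was 2 genes per alloBMT cell and 6 per PT-Cy cell. At least 10 were seen in 32 alloBMT cells (3.86%, exact binomial interval 2.65 to 5.40) against 93 PT-Cy cells (35.9%, 30.1 to 42.1). None were seen in 9.28% and 1.54% of cells. Of the cells with 10 or more, 22 of the 32 alloBMT and 87 of the 93 PT-Cy ones were in cluster 2. Within cluster 2, the share of cells with 10 or more was 56.4% for alloBMT (22 of 39, 39.6 to 72.2) against 40.3% for PT-Cy (87 of 216, 33.7 to 47.1), and these intervals overlap. Without thinning, 10 or more genes were seen in 5.29% and 47.5% of cells.

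**Figure D4:**
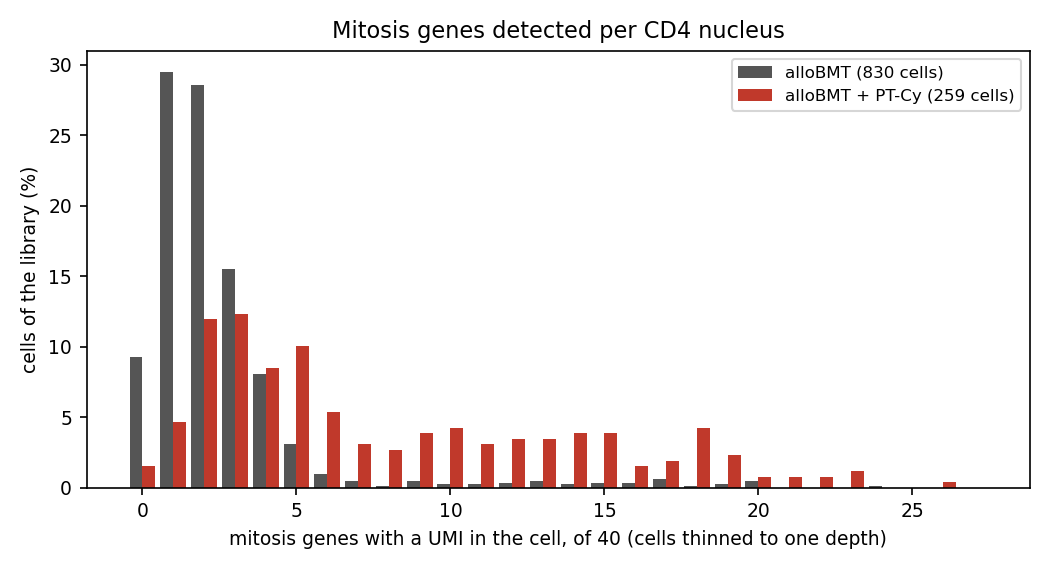
Share of cells of each library (vertical, percent) by the number of the 40 mitosis genes with a UMI (horizontal), after thinning every CD4 cell to 1981 UMIs. Most alloBMT cells lie at 0 to 4 genes, and 35.9% of PT-Cy cells lie at 10 or more against 3.86% of alloBMT cells.

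The shares of cells with a UMI of a given gene moved the same way at that depth. Mki67 was seen in 20.8% of alloBMT cells (18.1 to 23.8) against 61.4% of PT-Cy ones (55.2 to 67.4), and in 27.4% and 77.8% without thinning. Top2a was seen in 30.1% and 59.5%, Cenpf in 3.86% and 28.6%, Cdk1 in 2.77% and 17.0%, and Ccnb1 in 1.93% and 8.88% of thinned cells. Depdc1b went from 0.482% (4 cells) to 10.4% (27 cells). For Smc4 the share was 48.9% (45.5 to 52.4) in alloBMT and 65.3% (59.1 to 71.0) in PT-Cy. The haemoglobin gene Hbb-bs, which T cells do not make, was seen in 20.4% of alloBMT and 52.5% of PT-Cy cells at the same depth. For the neutrophil gene S100a9 the shares were 2.29% and 6.56%. Whether such UMIs came from free RNA, doublets or other cells was not tested.

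Markers of several other cell types were higher in PT-Cy too. The 11 erythroid markers summed to 214 CPM in alloBMT and 881 CPM in PT-Cy, 10 neutrophil markers to 33.7 and 254 CPM, 7 monocyte markers to 19.2 and 73.6 CPM, and 8 B cell markers to 2.64 and 14.2 CPM. The 6 stem and progenitor markers summed to 12.9 and 26.9 CPM. Of the NK and innate markers, Klrb1c had 1 UMI in alloBMT and 32 in PT-Cy, Zbtb16 had 21 and 72, and Ncr1 had 1 and 6, while Eomes had 491 and 85 UMIs (162 and 67.2 CPM). The part of these NK and innate markers in the result was not tested. The defining erythroid factors Gata1 and Klf1 had 0 and 1 UMIs over both libraries, and the erythroid membrane gene Slc4a1 had 0 in alloBMT and 21 in PT-Cy. In PT-Cy the share of cells with an Hbb-bs UMI was 49.5% among those with 0 to 4 mitosis genes (39.4 to 59.6), 58.5% among those with 5 to 9 and 51.6% among those with 10 or more (41.0 to 62.1). PT-Cy cells with 10 or more mitosis genes made up 35.3% of cells with an Hbb-bs UMI and 36.6% of cells without one. The 8 T cell markers had a median ratio of -0.35, and Cd3e was seen in 67.7% of the PT-Cy cells with 10 or more mitosis genes and in 84.4% of such alloBMT cells. Among cells with no UMI of any erythroid, neutrophil, monocyte or B cell marker, 415 in alloBMT and 22 in PT-Cy, the mitosis genes summed to 1751 CPM (1678 to 1826) and 6688 CPM (6085 to 7335).

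Cd8b1 was seen in 33.3% of PT-Cy cells with 10 or more mitosis genes (23.9 to 43.9) and in 10.9% of those with 0 to 4 (5.56 to 18.7). In alloBMT these shares were 9.38% (1.98 to 25.0) and 15.1% (12.6 to 17.9). In cells with no Cd8b1 UMI, 36 of the 40 genes were at least 2-fold higher in PT-Cy, with a median ratio of 1.92. The share of all genes that much higher in these cells is not given here, so the count stands without it. Cells with 10 or more mitosis genes were deeper before thinning, with medians of 5030.0 UMIs in alloBMT and 5033 in PT-Cy against 2808 and 3606 in cells with 0 to 4. Doublets were not called, and leaving out the 5% of cells deepest in UMIs, the median ratio was 2.24.

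Open chromatin at the same genes differed little between the groups. Accessibility of a gene is the sum of ATAC counts in deposited peaks that overlap it or lie within 2 kb, per 1000000 counts of the set; the 40 genes had 213 such peaks, of which 34 overlap a promoter entry. No peak served more than 1 of the 40 genes, and 27 also lay at another protein-coding gene. In CD4 cells none of the 40 genes passed 2-fold in either direction, where 2.44% and 1.47% of 15527 genes did. The median ratio was 0.05, against 0.01 over all genes, and the summed level was 2568 CPM in alloBMT and 2599.8 CPM in PT-Cy, a ratio of 0.02 (-0.03 to 0.07). Intervals of 4 genes lay above 0 and of 3 below it (8.87% and 7.46% of all genes). With TMM factors all CD4 ratios moved by -0.20, so the medians became -0.15 for the list and -0.19 for all genes.

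Promoter peaks, a choice made after the values were seen, held 64.3% of the CD4 counts at these genes. Their summed level was 1629 CPM in alloBMT and 1767 CPM in PT-Cy, a ratio of 0.12 (0.06 to 0.18) that turns below 0 with the TMM shift of -0.20, which moves all genes alike. Intervals of 6 of 34 promoters lay above 0 and of 0 below, where 7.01% and 4.39% of 12078 promoters did, and with TMM factors 0 lay above and 3 below (2.8% and 19.9% of all promoters). The median promoter ratio was 0.11, against 0.01 over all promoters.

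The highest CD4 ratios were those of Kif18b, Mki67, Birc5 and Nusap1. Kif18b had 283 counts (40.6 CPM) in alloBMT and 81 (52.6 CPM) in PT-Cy, a ratio of 0.38 (0.00 to 0.74). At Mki67 there were 447 (64.1 CPM) and 122 (79.3 CPM), a ratio of 0.31 (0.01 to 0.60), and its promoter peak chr7:135715160-135716873 had 0.33. Birc5 had 526 (75.4 CPM) and 143 (92.9 CPM), a ratio of 0.30 (0.02 to 0.57), almost all of it in the promoter peak chr11:117847824-117849723. Nusap1 had a ratio of 0.28 (-0.04 to 0.59), and its promoter peak chr2:119617747-119619079 had 0.40 (0.06 to 0.73). In each of these 4 genes the promoter ratio was above that of the whole gene, and with TMM factors no interval of the 40 genes lay above 0 and 9 lay below (3.66% and 25.6% of all genes).

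The lowest CD4 ratios were those of Kif15, Prc1, Kif4 and Bub1b, at -0.40, -0.32, -0.32 and -0.29. For Kif15 there were 1012 counts (145 CPM) in alloBMT and 169 (109.8 CPM) in PT-Cy, with an interval of -0.65 to -0.17, while its promoter was level at 0.02 (-0.41 to 0.42). A peak inside the gene at chr9:122997995-122999927 had 25.2 CPM and 12.3 CPM, a ratio of -1.03 (-1.80 to -0.35). A peak inside Prc1 at chr7:80313332-80314842 had 12.8 CPM and 5.20 CPM, a ratio of -1.30 (-2.55 to -0.26). A peak inside Kif20b at chr19:34959255-34960052 was at -1.26 (-2.44 to -0.28) in CD4 and -1.18 (-2.12 to -0.37) in CD8 cells, and was named after its values were seen. These peaks were picked from the 213 at the listed genes, and no share over all peaks was counted beside them. RNA of all 3 genes was higher in PT-Cy.

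In CD8 cells, for which only accessibility was read here, the picture was level too. None of the 40 genes passed 2-fold (1.27% of 16471 genes were that much higher), the median ratio was 0.03 against -0.01 over all genes, and 1 interval lay above 0 and 1 below (9.25% and 9.08% of all genes). Ect2 was the gene above, with 60.4 CPM in alloBMT and 70.9 CPM in PT-Cy and a ratio of 0.23 (0.01 to 0.44), next to Hmmr at 0.24, Aurkb at 0.23 and Ccnb1 at 0.20, whose intervals included 0. Cenpf was the gene below, with 55.1 and 43.6 CPM and a ratio of -0.34 (-0.61 to -0.08). Cdk1, Prc1 and Kif4 followed at -0.20, -0.20 and -0.18. Cenpf in CD4 cells was at 0.15 (-0.19 to 0.47), and no gene had CD4 and CD8 intervals on opposite sides of 0. Summed promoter counts gave 0.05 (0.01 to 0.10), and 1 of 34 promoter intervals, that of Nusap1, lay above 0 and 0 below (7.58% and 5.32% of all promoters). With TMM factors, all CD8 ratios moved by -0.09, which turned that sum below 0 and left no interval above 0. Then 4 of 40 genes and 2 of 34 promoters had intervals below 0 (19.4% of all genes and 13% of all promoters).

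**Figure D5:**
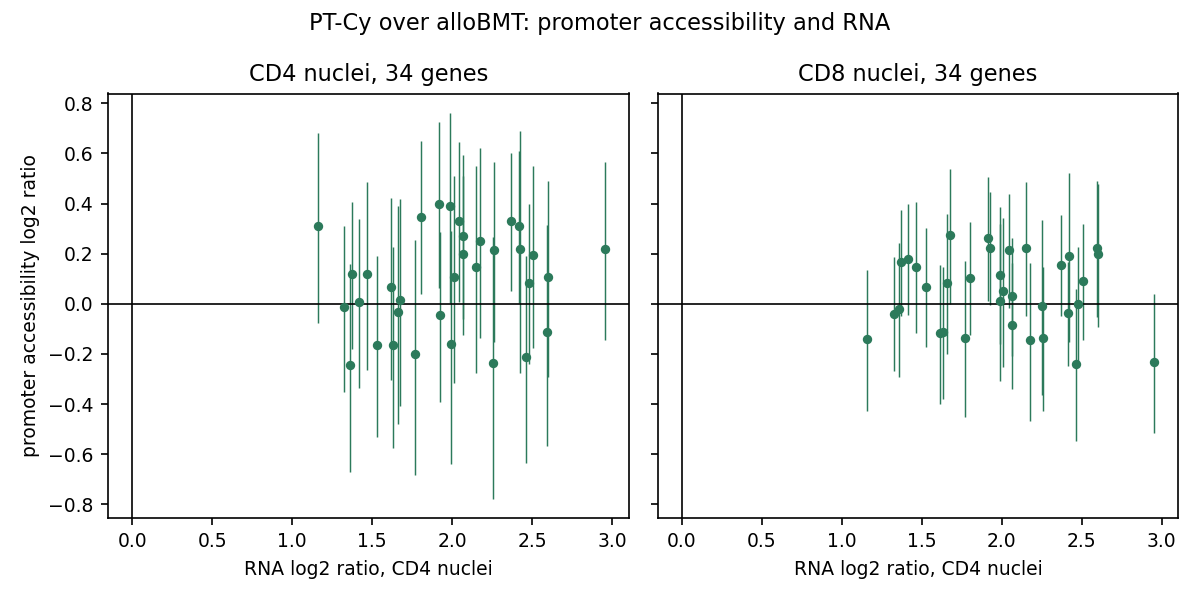
RNA ratio in CD4 nuclei (horizontal) and promoter accessibility ratio (vertical, with 95% counting intervals) in CD4 and in CD8 nuclei for the 34 genes with a promoter entry, each point 1 gene, log2 of PT-Cy over alloBMT. RNA ratios all exceed 1 while promoter ratios stay between -0.25 and 0.40 in CD4 and between -0.24 and 0.27 in CD8.

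Across the alloBMT clusters, promoter accessibility of the mitosis genes was highest in cluster 2 of each set. In alloBMT CD4 cells it was 1946 CPM in cluster 2 (1821 to 2077) and 1497 to 1658 CPM in the other 4 clusters, which is 0.436% of all promoter counts against 0.338% to 0.376%. In PT-Cy CD4 cells, cluster 2 was at 1771 CPM (1700.3 to 1843) and cluster 4 at 1735 CPM (1530.2 to 1959), while the 11 cells of cluster 3 gave 1955 CPM from 43 counts (1415 to 2634). Among alloBMT CD8 cells, cluster 2 was likewise the highest with 1889.5 CPM (1832 to 1948), against 1493 to 1631 CPM in the other 7 clusters. PT-Cy cells of CD8 cluster 2 were at 1725 CPM (1657 to 1794), and those of clusters 5 and 6 at 1584 and 1623 CPM, with 23 cells or fewer in each other PT-Cy cluster. Cluster 2 was also the deepest alloBMT cluster of its set, with medians of 9528 counts per CD4 and 15014 per CD8 cell, and the part of depth in these values was not tested.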

How the data were processed

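RNA and ATAC libraries of 2 pools of T cells were used, 1 per group and assay. Both deposited matrices give raw counts, whole and not normalized, for every cell at each gene or peak, per the file headers and values. The mitochondrial percent per cell was deposited by the authors. The deposited cell annotation has 58 columns, and 51 of them were not used. The submitters' processing notes name Cell Ranger ARC 1.0.1, MACS2 and the human build GRCh38; 51.5% of 32851 mouse GRCm38.p6 promoter windows lay in a peak, against 8.48% to 9.10% when shifted, so GRCm38 was used. The sources used here do not say how cells or doublets were filtered.

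Counts were summed per library, scaled to CPM and compared with exact conditional binomial 95% intervals (scipy 1.17.1), for counting error only; UMIs of 1 library are pooled from cells, so intervals leave out the spread between cells and mice. A 0 was set to 3 counts. Members, roles and lists were chosen with earlier results of these data known. Genes given in full were 20 fixed ones, the 5 highest and 5 lowest ratios, up to 4 per other list, and 4 highest and 4 lowest for accessibility. Thinning took cells to the 10th percentile of UMIs. Alternatives used edgeR 4.0.16 and DESeq2 1.42.0 factors, other minimums, windows and cell subsets. The computation was tested on simulated counts.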

Additional observations from a re-analysis of the deposited data

Results flagged for a closer look

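The RNA ratios of 11 of the 40 mitosis genes lay on opposite sides of 0 in parts of the CD4 set: the whole counting interval was below 0 within deposited cluster 2 and above 0 in the other cells. The same count was not made over all genes, so the 11 is not read as a trait of this list. The clusters were made from the profiles of these cells, and the mitosis genes were highest in cluster 2 of each library. The split is thus not independent of these ratios. The difference between the ratios was not tested, and with 1 library per group it cannot be set against a spread between mice. Among the motors, Kif4 was at -0.60 within cluster 2 and 2.03 outside it, Kif11 was at -1.17 within cluster 2 and 1.11 outside it, Kif15 was at -1.12 within cluster 2 and 1.16 outside it, Kif18b was at -1.13 within cluster 2 and 2.81 outside it. Of the other genes, Bub1b was at -0.78 within cluster 2 and 1.71 outside it, Nusap1 was at -0.67 within cluster 2 and 1.81 outside it, Smc4 was at -0.26 within cluster 2 and 0.64 outside it, Ect2 was at -0.70 within cluster 2 and 1.89 outside it. Cenpe was at -0.50 within cluster 2, 1.68 in cluster 4 and 1.75 in all cells outside cluster 2. Aspm was at -0.65 within cluster 2, 4.27 in cluster 4, from 1 alloBMT and 21 PT-Cy UMIs (1.63 to 9.64), and 2.60 in all cells outside cluster 2. Top2a was at -0.36 within cluster 2, 1.38 in cluster 4 and 1.21 in all cells outside cluster 2. Nothing is read from the cluster 4 ratios, as these genes met the minimum there mainly through PT-Cy.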

How the results depend on the processing

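No paired analysis was possible because each group holds 1 library, and for the same reason no replicate could be left out. The count of 39 genes at least 2-fold higher was 36 in cells with no Cd8b1 UMI, 30 of 38 without cluster 2 and 25 of 29 in cells with no UMI of other-cell markers. It was 1 within cluster 2 and 7 of 9 within cluster 4, where all but Smc4 met the minimum only with their PT-Cy UMIs. For cells with no Cd8b1 UMI or no other-cell marker, the share over all genes is not given here, so those counts stand without it. The median ratio of 2.05 became 1.92 with TMM factors, 1.92 with DESeq2 size factors, 2.24 as a mean over cells and 2.24 after dropping the deepest 5% of cells. It was 1.92 in cells with no Cd8b1 UMI, 1.98 without cluster 2, 2.21 in cells with no other-cell marker and -0.33 within cluster 2. Within cluster 4 the median was 1.91 over the same 9 genes, so nothing is read from it. The summed ratio of 1.74 became 1.61, 1.60 and 1.85 with TMM factors, size factors and without the deepest cells, 1.60 in cells with no Cd8b1 UMI, 1.54 without cluster 2, 1.54 within cluster 4, 1.93 with no other-cell marker and -0.36 within cluster 2. Within cluster 2 the ratios of 32 genes changed sign: Ccna2 -0.16, Aurkb -0.25, Bub1 -0.40, Bub1b -0.78, Sgo1 -0.12, Sgo2a -0.61, Cenpe -0.50, Knl1 -0.26, Ndc80 -0.54, Nuf2 -0.82, Kif4 -0.60, Kif11 -1.17, Kif15 -1.12, Kif18b -1.13, Kif20b -0.39, Kif23 -0.40, Tpx2 -0.017, Aspm -0.65, Nusap1 -0.67, Hmmr -0.17, Prc1 -0.29, Smc2 -0.076, Smc4 -0.26, Ncapd2 -0.89, Ncapg -0.084, Ncaph -1.04, Ncapg2 -0.80, Anln -0.37, Ect2 -0.70, Depdc1b -0.069, Mki67 -0.077, Top2a -0.36. Sign changes were not counted over all genes. Under the settings other than cluster 2, every mitosis gene that met the minimum stayed above 0. The median share of cells with a UMI was 3.25% and 17.2% in alloBMT and PT-Cy, and 5.72% and 29.0% without thinning. The share of cells with 10 or more genes was 2.53% and 26.5% at 1500 UMIs per cell, and 47.5% in PT-Cy without thinning. The median accessibility ratio of 0.05 in CD4 cells became -0.15 with TMM factors, -0.0051 with each cell counted once per peak and 0.11 at promoters, an alternative chosen after seeing the data, and that of 0.03 in CD8 cells became -0.063 with TMM factors. The 42 and 34 alloBMT cells of clusters 2 and 4 limit the precision of the ratios within them.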
